A study of Mus musculus with 24 samples.

Results

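The genes described here are those of vanin 1 and of the route from its product to coenzyme A (CoA), measured in ovaries of 2 mouse lines, FL1, bred for high fertility, and DUKsi, its unselected control. They are Vnn1, Vnn3, Pank1, Pank2, Pank3, Pank4 and Coasy, and every probe set annotated to one of these symbols was taken. The arrays read a transcript with a set of short oligonucleotides, here called a probe set. Of the 7 genes, 5 were measured, by 7 of the 22626 probe sets tested, against 12393 genes in all. Vnn1, Vnn3 and Coasy had 1 probe set each and Pank1 and Pank3 had 2 each, whereas no probe set was annotated to Pank2 or Pank4. Vnn1 entered the list for its difference between the lines on these same arrays. All values of the members are therefore given as a description, with their errors and without a test.

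Breeders of FL1 had been chosen over 130 generations by an index of the size and the total weight of the first litter at birth. DUKsi was never selected, and brother-sister matings over some 36 generations made it inbred. Both descend from 1 outbred population made from 4 inbred and 4 outbred lines, so that the lines differ in inbreeding as well as in selection. The ovaries, both sides together, came from 30 virgin females per line, 6 to 9 weeks old, at metestrus, the stage after ovulation. RNA of single females was combined to 6 pools per line (5 females per pool in the methods, 6 in the labels), and each pool was hybridized to 2 Affymetrix mouse expression arrays. Pools and not animals are thus the replicates. An ovary holds several cell types, and in such tissue RNA a smaller number of cells of a type cannot be told apart from less RNA per cell.

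Coenzyme A is the carrier of acyl groups in fatty acid oxidation, in the tricarboxylic acid cycle and in the synthesis of fatty acids and of cholesterol, from which luteal cells make progesterone. Cells build it from pantothenate (vitamin B5). Pantothenate kinases, encoded by Pank1, Pank2 and Pank3, add the first phosphate and set the pace of the route. CoA synthase, encoded by Coasy, carries out its last steps. Vanins work in the opposite direction outside the cell, where these pantetheinases split pantetheine, a breakdown product of CoA, into pantothenate and cysteamine.

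Sequences are shown for the members whose arrays are described most closely beside Vnn1, namely Vnn3, the gene next to it on chromosome 10, and Pank3, whose probe sets disagreed. They are promoter windows of RefSeq (GRCm38.p6) from 250 bases before to 50 after the start of the gene, both on the plus strand, with each CG dinucleotide in capitals. Of the 7 genes 5 matched the RefSeq promoter entries, and Vnn1 and Coasy are given by name only.
Vnn3, chr10:23851212-23851511: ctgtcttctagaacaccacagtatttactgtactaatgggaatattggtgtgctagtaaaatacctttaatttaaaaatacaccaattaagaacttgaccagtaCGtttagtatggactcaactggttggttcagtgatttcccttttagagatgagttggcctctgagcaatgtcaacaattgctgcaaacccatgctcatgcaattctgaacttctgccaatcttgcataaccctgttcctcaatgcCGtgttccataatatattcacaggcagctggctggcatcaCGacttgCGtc
Pank3, chr11:35769245-35769544: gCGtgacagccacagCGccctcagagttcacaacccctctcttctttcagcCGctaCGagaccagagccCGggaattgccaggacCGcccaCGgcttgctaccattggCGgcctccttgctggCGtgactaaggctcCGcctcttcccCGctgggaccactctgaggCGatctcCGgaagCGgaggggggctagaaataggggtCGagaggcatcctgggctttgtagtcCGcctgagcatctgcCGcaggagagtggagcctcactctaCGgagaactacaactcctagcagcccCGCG
The Vnn3 window holds 4 CG dinucleotides at a GC content of 41.0% and the Pank3 window 20 at 63.0%, beside a median of 7 over the 32851 windows of this length. The letters AGGTCA, a motif bound by nuclear receptors such as PPAR alpha, were searched on both strands. They were in neither window, nor in the 6 windows of Pank1, Pank2 and Pank4, and 16.3% of all windows hold them.

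The loci of Pank1, Pank2 and Pank3 share a feature that the choice of genes did not use, as each contains a microRNA gene on its own strand. The mature 3p forms are shown with the seed (bases 2 to 8) in capitals, since the seed GCAGCAU is common to both.
mmu-miR-103-3p, within Pank3 at chr11:35782447-35782469 and within Pank2 at chr2:131288103-131288125, both plus strand: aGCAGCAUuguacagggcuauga
mmu-miR-107-3p, within Pank1 at chr19:34820700-34820722, minus strand: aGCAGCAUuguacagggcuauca
Counted from the 5′ end, the step from miR-103-3p to miR-107-3p is G22C. The mature microRNAs are not measured by these arrays, which report the host transcripts.

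Vnn1 was the only member with a large difference between the lines. Its probe set (1418486_at) had signals of 4598, 3475, 3863, 4799.8, 3613 and 3929.7 in FL1 pools 1 to 6, against 683, 499, 514, 482, 483 and 408 in DUKsi pools 1 to 6. Signals are MAS5 values on a linear scale, and each ± is an SD over the 6 pools of a line (n = 6) unless said otherwise. FL1 pools 1 and 4 were the highest and DUKsi pool 1 the highest of its line, and the lines lay far apart. FL1 pools averaged 4046 ± 535 and DUKsi pools 511 ± 91.4, which makes FL1 higher by a fold change of 7.91 (2.99 on the log2 scale, with an SE of 0.111). The lowest FL1 pool was 5.09 times the highest DUKsi pool. On single arrays the signals ran from 3403 to 5027 in FL1 and from 406 to 690.1 in DUKsi, so that the lowest FL1 array was still 4.93 times the highest DUKsi array. Both arrays of 1 pool were close to each other for this probe set, with a median difference of 0.0501 on the log2 scale and a largest one of 0.27, in FL1 pool 1. Relative to the mean, the pools spread by 13.2% in FL1 and 17.9% in DUKsi (coefficient of variation), although the signals of the lines were so different. Among all 22626 probe sets the log2 fold change of Vnn1 was the 11th from the top, and among the 13576 with the brighter mean signals it was the 8th.

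**Figure D1:**
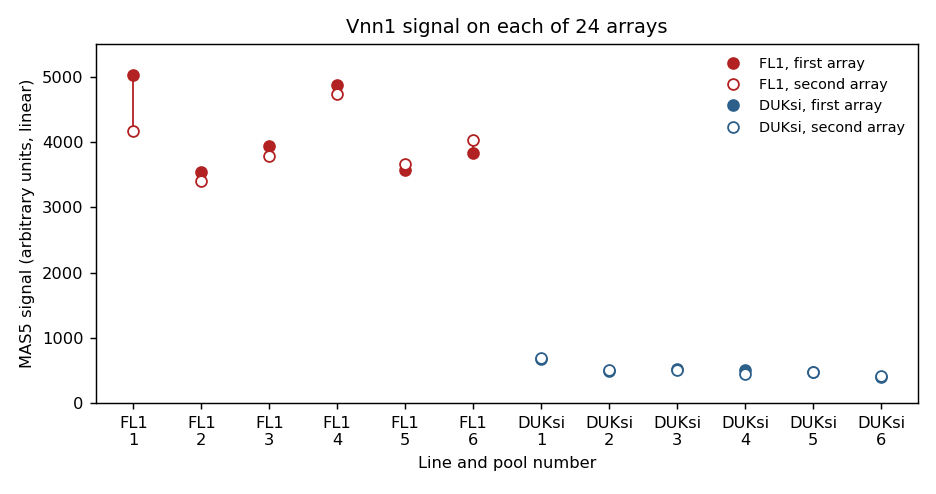
MAS5 signal of the Vnn1 probe set (y axis, linear) on each of 24 arrays, by line and pool (x axis), filled for the first array of a pool and open for the second, with a line joining both. All FL1 arrays lie between 3403 and 5027, and all DUKsi arrays between 406 and 690.1.

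Calls required an adjusted p below 0.01 in limma together with a change of the mean signal by 1.5-fold or more, up or down. The study set the same limits on its q-value, from another test, and on the fold change, and further asked for a majority of pairwise array comparisons, which was not applied here. Of the 7 member probe sets 1 met both, that of Vnn1. Of all probe sets tested 2.32% did, 1.24% with FL1 higher and 1.07% with FL1 lower, and nothing is read from the members' count because Vnn1 had been chosen by it. The log2 fold changes of the other 6 ran from -0.36 to 0.24, beside a median of -0.07 over all probe sets, whose central part from the lower to the upper quartile spanned -0.24 to 0.09.

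Vnn3, which encodes a second pantetheinase and lies next to Vnn1 in the genome, was dim. Its signal (1420723_at) was 26.9, 23.7, 71.6, 81.6, 16.0 and 33.7 in FL1 pools 1 to 6, against 49.4, 30.1, 19.5, 25.5, 95.05 and 70.7 in DUKsi pools 1 to 6. The ranges overlapped nearly completely, and the averages were 42.2 ± 27.4 for FL1 and 48.35 ± 29.6 for DUKsi (-0.22 on the log2 scale, with an SE of 0.458). The dimmest 20% of all signals lie below 48.4, and so did 4 FL1 pools and 3 DUKsi pools of Vnn3. Repeated arrays differed by up to 2.52-fold, in DUKsi pool 6 with 101.2 and 40.1. At this signal no difference between the lines was detectable, and the direction was not fixed, since the log2 fold change was 0.05 on the first arrays alone, 0.02 without DUKsi pool 5 and 0.01 without FL1 pool 5.

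Pank3 was measured by 2 probe sets that differed in direction. The first (1433613_at) had 2504, 2292.5, 2054, 2259, 2129 and 2273 in FL1 pools 1 to 6, against 1908, 1816, 1955, 2006, 1904 and 1817 in DUKsi pools 1 to 6. Each FL1 pool was above each DUKsi pool, by a margin of 48.2 between the closest ones. FL1 averaged 2252 ± 155 and DUKsi 1901 ± 75.2, a fold change of 1.18 (0.24 on the log2 scale, with an SE of 0.059). On single arrays the lines did overlap, with a lowest FL1 array of 1996 and a highest DUKsi array of 2151.

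The other Pank3 probe set (1426259_at) had 173, 303, 264, 260.3, 231 and 248 in FL1 pools 1 to 6, against 329, 299.9, 336, 288, 302 and 315 in DUKsi pools 1 to 6. Here 5 FL1 pools lay under all DUKsi pools, and FL1 pool 2 lay within the DUKsi range. FL1 averaged 247 ± 43.4 and DUKsi 312 ± 18.7 (-0.36 on the log2 scale, with an SE of 0.123). FL1 pool 1 was the lowest of all 12 pools in this probe set and the highest of all 12 in the other one. Without FL1 pool 1 the log2 fold change was -0.26 in 1426259_at and 0.21 in 1433613_at, so that the signs stayed opposite. They stayed opposite under every alternative tried for these probe sets. Which transcripts of Pank3 each probe set detects was not tested.

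Pank1, which encodes the kinase isoforms known for regulation by PPAR alpha in mouse liver, differed little. The probe set 1431028_a_at had 1502, 1393, 1587, 1344, 1399 and 1394 in FL1 pools 1 to 6, against 1504, 1279, 1529, 1525, 1670.3 and 1369.95 in DUKsi pools 1 to 6. FL1 averaged 1436 ± 90.2 and DUKsi 1479.6 ± 137 (-0.04 on the log2 scale, with an SE of 0.0713). In 1418715_at the lowest, median and highest pool was 1079, 1431 and 1756 in FL1, against 1309.9, 1512 and 1668 in DUKsi, and FL1 averaged 1408 ± 250.1 and DUKsi 1480.04 ± 138 (-0.09 on the log2 scale, with an SE of 0.108). The pools of the lines overlapped in both. In 1418715_at the FL1 pools spread more widely, from the lowest pool of the study, FL1 pool 1, to the highest, FL1 pool 6, at coefficients of variation of 17.8% in FL1 and 9.33% in DUKsi. In 1431028_a_at these were 6.28% in FL1 and 9.25% in DUKsi.

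Coasy had the same mean in both lines. Its probe set (1423701_at) had 416, 368, 393, 415.5, 421 and 425 in FL1 pools 1 to 6, against 419, 393, 402, 349, 413 and 459 in DUKsi pools 1 to 6. FL1 averaged 406 ± 21.7 and DUKsi 406 ± 35.6 (0.00 on the log2 scale, with an SE of 0.083), and the DUKsi pools enclosed those of FL1. Repeated arrays disagreed more for Coasy than for any other member but Vnn3, by a median of 0.322 on the log2 scale and by 1.94-fold in DUKsi pool 4, with 238 and 461. On the first arrays alone the log2 fold change was 0.13 and on the second arrays alone -0.11, so that the direction of this small value depended on the array.

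**Figure D2:**
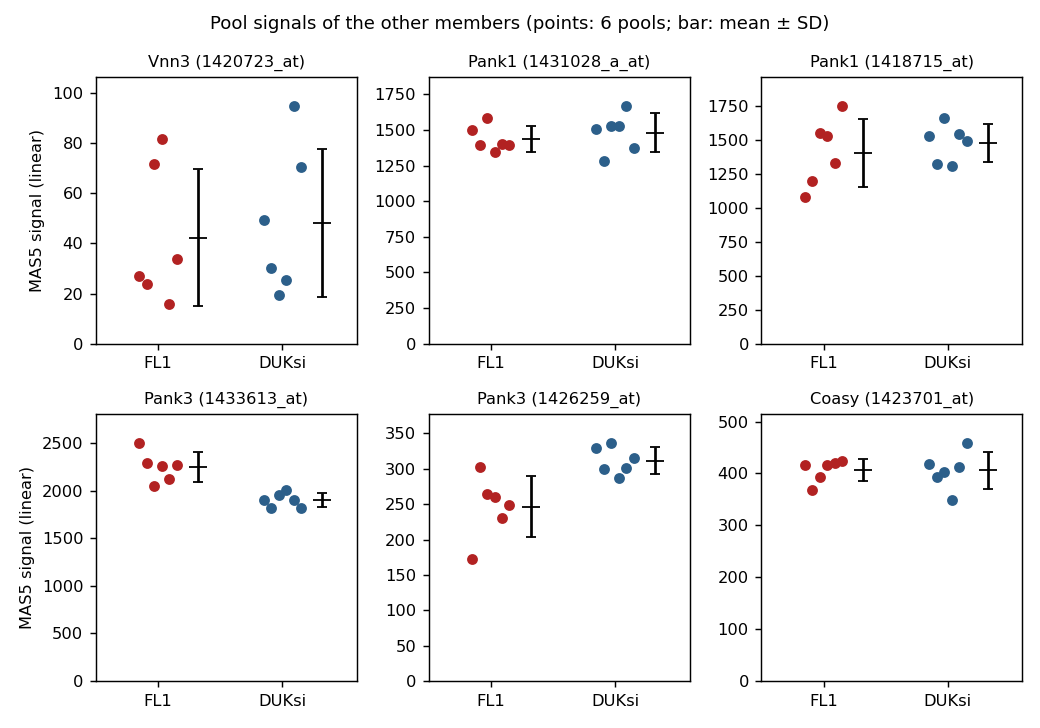
MAS5 signal (y axis, linear, from 0) of the 6 probe sets of Vnn3, Pank1, Pank3 and Coasy in FL1 and DUKsi (x axis), with a point per pool and a bar for mean ± SD. The lines are separate only in Pank3 1433613_at, where the lowest FL1 pool is 2054 and the highest DUKsi pool 2006.

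Over the 7 member probe sets the pools of the lines did not overlap in 2, Vnn1 and Pank3 1433613_at, both higher in FL1. Over all probe sets tested 4.62% did not overlap, 2.24% with FL1 higher and 2.39% with FL1 lower. This count also rests on the contrast that had chosen Vnn1, so nothing is read from it. The separation of Pank3 corresponds to a fold change of 1.18, against 7.91 for Vnn1.

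The beta-actin control probe sets, whose 3′ to 5′ signal ratio measures RNA integrity, differed between the lines as well. The ratio was 1.32 to 2.45 in the FL1 pools and 1.18 to 1.32 in the DUKsi pools, and it averaged 1.67 ± 0.423 in FL1 and 1.27 ± 0.0522 in DUKsi. An exact permutation of the pools gave p = 0.00216 (two-sided), and no smaller p is possible with 6 pools against 6. The Gapdh ratio averaged 1.53 ± 0.42 in FL1 and 1.28 ± 0.146 in DUKsi (p = 0.203 by the same exact permutation). Both ratios were highest in FL1 pool 3, and the beta-actin ratio of every FL1 pool was above that of every DUKsi pool, so that it cannot be fully told apart from the line. With the beta-actin ratio as a covariate the log2 fold change of Vnn1 was 3.02, and whichever pool was left out it stayed between 2.93 and 3.08. Under that covariate Pank3 had 0.32 in 1433613_at and -0.44 in 1426259_at, and Vnn3 had -0.79. The part of RNA integrity was not tested further.

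Markers of ovarian cell types moved between the lines beside Vnn1 (adjusted p under 0.01 in limma, by the brightest probe set of each marker). Of all probe sets tested, dim ones included, 3.38% passed, 1.83% higher and 1.55% lower in FL1, at a median log2 fold change of -0.07. With so few markers per cell type, nothing is read from a single marker that passed. Of 8 measured luteal cell markers 3 rose in FL1, Hsd17b7, Cyp11a1 and Ptgfr, and none fell, at a median log2 fold change of 1.42. Their summed signal was 46498 to 56802 in the FL1 pools and 24901 to 36090.4 in the DUKsi pools. The sums are led by the brightest marker, Hsd3b1, at 0.26 on the log2 scale (adjusted p = 0.024), while Ptgfr had 1.82 (adjusted p = 0.00373), Hsd17b7 1.78 (adjusted p = 4.99e-05) and Cyp11a1 0.98 (adjusted p = 0.000376). Of all 15 luteal probe sets 6 rose and none fell. Cyp11a1 and Ptgfr are also among the differential transcripts that the study had found on these samples, so their direction is not independent evidence. In its qPCR the study found the Ptgfr difference significant between pools but not between single animals. Of 7 granulosa cell markers 1 fell, Inhba, and of all 11 granulosa probe sets 3 fell. The list median was -0.23, and the sums were 30298 to 35971 in FL1 and 35869 to 41232 in DUKsi. These sums are led by the brightest marker, Inha, at -0.16 on the log2 scale (adjusted p = 0.169), while Amh had 0.27 (adjusted p = 0.191). None of 4 theca cell markers passed, at a median of -0.34. Their sums were 5331 to 8141 in FL1 and 7091 to 11102 in DUKsi. Of 7 oocyte markers 1 fell, Zp3, at a list median of -0.26. The oocyte sums were 6775 to 8994 in FL1 and 8831 to 10592 in DUKsi. None of 7 macrophage and neutrophil markers passed, at a median of 0.35, with Itgam under 48.4 on average. Their sums were 4292 to 5339 in FL1 and 3490.1 to 5259 in DUKsi. Of 5 endothelial cell markers 1 rose, Pecam1, at a list median of 0.27. The endothelial sums were 2459 to 3042 in FL1 and 2035 to 2651 in DUKsi.

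Cells that could be carried over from around the ovary were looked at in the same way. None of 3 adipocyte markers passed, at sums of 132 to 2407 in FL1 and 86.7 to 1713 in DUKsi, with Lep under 48.4 in every pool. Of 7 markers of oviduct and surface epithelium 1 rose, Upk3b, at sums of 2181 to 2535 in FL1 and 1288 to 7010 in DUKsi. The DUKsi pools were uneven, with an SD above the mean for Ovgp1 (797 ± 1306), Krt7 (129 ± 194) and Krt19 (142 ± 188) but not for the other markers. In FL1 these were 239 ± 81.0, 126 ± 34.4 and 116 ± 48.4. Of 3 red blood cell markers 1 rose, Alas2, at sums of 90.5 to 196 in FL1 and 99.8 to 160.5 in DUKsi, with Alas2 and Slc4a1 under 48.4 on average. Which of these cells make Vnn1 cannot be read from whole ovaries, and the part of cell numbers in its signal was not tested.

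The genes around the members were taken from 6 lists of textbook knowledge, with 1 probe set per gene, the one with the highest signal. Of the 75 genes on the lists 63 were measured. The words rose and fell are kept for genes whose adjusted p was under 0.01, and by this measure 2 rose and 1 fell in FL1. That is 4.76% of the measured genes, beside 3.38% of all probe sets tested (1.83% higher and 1.55% lower in FL1). The share on the lists was thus near that of the array as a whole.

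The gene that fell was Slc25a42, whose product carries CoA into mitochondria. Its signal was 953 to 1186 in the FL1 pools, with a median of 1108, against 1244 to 1731 in the DUKsi pools, with a median of 1414. The pools of the lines did not overlap, and FL1 averaged 1086 ± 98.5 and DUKsi 1470.5 ± 181 (-0.43 on the log2 scale, with an SE of 0.0873 and, in limma, an adjusted p = 0.00553). Slc25a42 passed near the threshold, and this was lost in 12 of 23 alternatives, at an adjusted p between 0.0101 and 0.0257. Among these were the omission of FL1 pool 2 (0.0136) or 6 (0.0171) and of DUKsi pool 1 (0.0118), 2 (0.0101), 5 (0.0173) or 6 (0.0148), the pool number as a block (0.0166), the beta-actin ratio as a covariate (0.0247) and scaling to the same median (0.0236). Slc25a42 was 1 of 8 measured genes of CoA synthesis and pantothenate supply, and the other 7 did not pass, at a list median of -0.27. Ppcs and Ppcdc, the enzymes between the kinases and CoA synthase, were at 0.00 on the log2 scale for Ppcs (adjusted p = 0.996) and at 0.02 for Ppcdc (adjusted p = 0.949). The vitamin transporter gene Slc5a6, which takes up pantothenate, had 0.36 (SE 0.253, adjusted p = 0.477). Ppcs, Ppcdc and Slc5a6 were picked for their place in the route after their values had been seen.

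The 2 genes that rose were on the list of PPAR alpha and its targets in mouse liver, where Vnn1 is itself known as a target. Decr1, a reductase for the oxidation of unsaturated fatty acids, had a lowest, median and highest pool of 1203, 1345 and 1473 in FL1, against 739, 791 and 905 in DUKsi. FL1 averaged 1341 ± 117 and DUKsi 799.99 ± 55.8 (0.74 on the log2 scale, with an SE of 0.0727 and, in limma, an adjusted p = 7.41e-06). DUKsi pool 4, at 905, stood apart from the other pools of its line. The second probe set of Decr1 had 0.52 (adjusted p = 0.00352). Decr1 is also listed among the differential transcripts that the study had chosen on these samples, so its direction is not independent evidence. Acadm, the medium-chain acyl-CoA dehydrogenase, had 2471, 2588 and 2695 in FL1, against 1864, 1944 and 2171 in DUKsi. FL1 averaged 2582 ± 85.1 and DUKsi 1991 ± 128 (0.38 on the log2 scale, with an SE of 0.0567 and an adjusted p = 0.000527). The adjusted p of Acadm was 0.0115 on the first arrays alone and 0.0142 on the second arrays alone. The other 19 of 21 measured genes did not pass, and the median of the list was 0.13. Among those that did not pass were other genes of mitochondrial fatty acid oxidation, Slc25a20 at 0.59 (adjusted p = 0.0517), Cpt2 at 0.25 (adjusted p = 0.25), Cpt1a at 0.22 (adjusted p = 0.185) and Hadha at 0.03 (adjusted p = 0.898), which are named after their values had been seen. Ppara itself averaged 84.4 ± 37.5 in FL1 and 135 ± 41.4 in DUKsi (-0.75 on the log2 scale, with an SE of 0.327 and an adjusted p = 0.212). Ppard and the classical targets Ehhadh and Cyp4a14 were under 48.4 in all 12 pools.

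In the remaining 4 lists no gene passed. Of 5 genes of CoA breakdown, with a median of 0.01, Nudt19, a CoA hydrolase of peroxisomes, had 0.29 (adjusted p = 0.0616) and Btd, which encodes biotinidase, a relative of the vanins, had 0.01 (adjusted p = 0.95). Of 9 genes of cysteamine, taurine and glutathione, with a median of 0.06, the taurine transporter gene Slc6a6 had 0.23 (adjusted p = 0.206) and Gclc, the catalytic subunit that limits glutathione synthesis, had -0.28 (adjusted p = 0.273). Of 11 acyl-CoA synthetases, which load fatty acids onto CoA, with a median of 0.15, Acsbg1 had -0.43 (adjusted p = 0.0448) and Acsl5 had 0.15 (adjusted p = 0.248). Of 10 acyl-CoA thioesterases, which release CoA again, with a median of -0.03, Acot13 had 0.12 (adjusted p = 0.425) and Acot9 had 0.05 (adjusted p = 0.762). These values are log2 fold changes with adjusted p from limma.

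**Figure D3:**
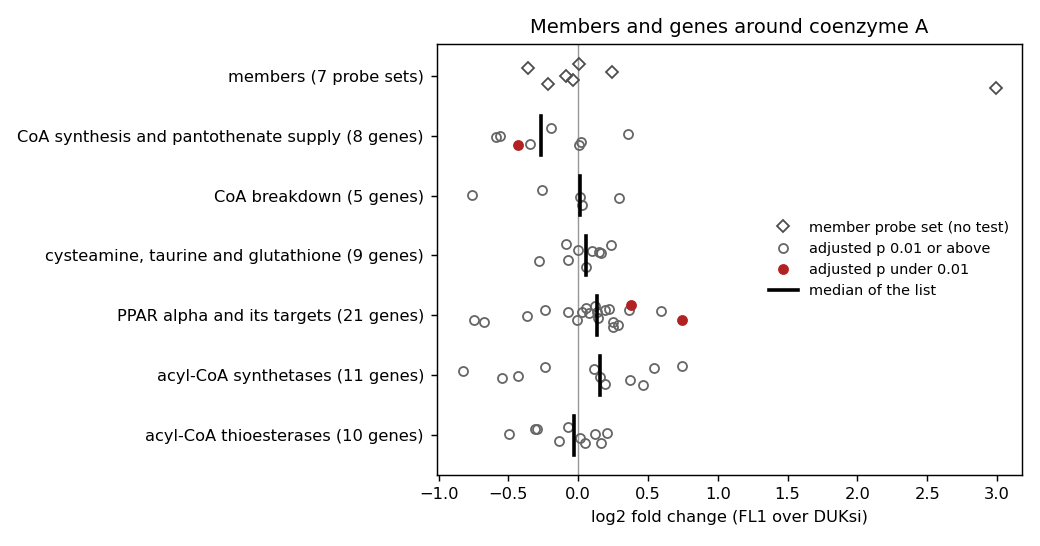
FL1 over DUKsi on the log2 scale (x axis) for the 7 member probe sets (diamonds, not tested) and the measured genes of 6 lists (circles, red at an adjusted p under 0.01; black bar, median of the list). Vnn1 lies at 2.99, away from the other members and from all listed genes, whose highest value is 0.75.

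Vnn1 and Vnn3 are neighbours on chromosome 10. Of the 20 RefSeq genes nearest to Vnn1, 10 on each side, 2 were measured, Vnn3 and Taar1, a trace amine receptor gene at -0.26 on the log2 scale (SE of 0.161, limma's adjusted p = 0.406). The window was therefore widened, after the data had been seen, to the 5 nearest measured genes on each side. These 10 genes include Vnn3, a member given without a test. Beside 3.38% of all probe sets tested, 1 of the 10 genes passed an adjusted p of 0.01. Nothing particular to the region is read from this 1 gene. It was Stx7, a syntaxin of endosomes that lies 20 genes from Vnn1. Its mean was 1039 ± 129 in FL1 and 603 ± 88.1 in DUKsi, and its pools ran from 847 to 1177 in FL1 and from 523 to 729 in DUKsi (0.79 on the log2 scale, with an SE of 0.105 and an adjusted p = 0.000175). Stx7 is likewise on the list that the study had chosen on these samples. Sgk1, a kinase gene 47 genes from Vnn1 on the side of Vnn3, did not pass but also had pools that did not overlap, at 1485 to 2289.6 in FL1 and 345 to 1238 in DUKsi (1.14 on the log2 scale, with an SE of 0.264 and an adjusted p = 0.0142). It is named because of these values. Vnn3, on one side of Vnn1, was too dim for a comparison, and Taar1 is the nearest measured gene on the other side.

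**Figure D4:**
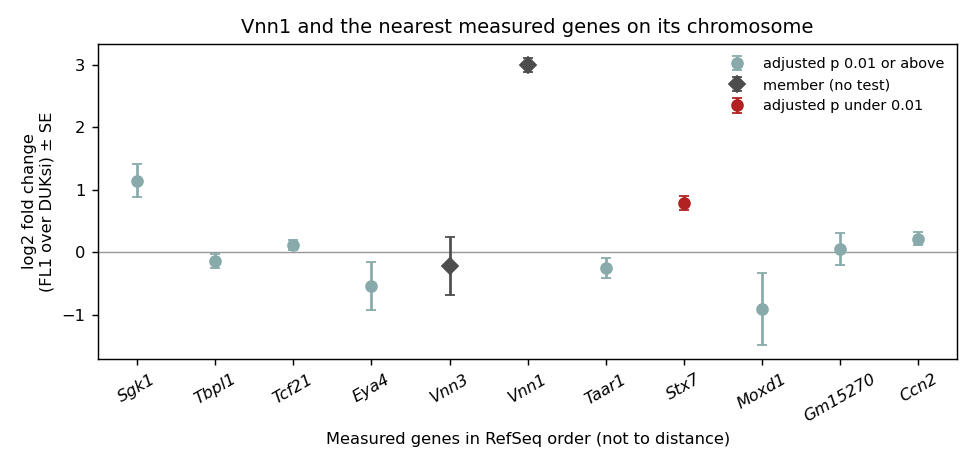
Log2 fold change (FL1 over DUKsi, y axis, ± SE) of Vnn1 and the 5 nearest measured genes on each side, in RefSeq order (x axis, not to distance). Vnn1 (2.99) stands between Vnn3 (-0.22) and Taar1 (-0.26). Stx7 (0.79) has an adjusted p under 0.01, and Sgk1 (1.14) has 0.0142.

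The pattern of Vnn1 over the pools was compared with that of the 12497 other probe sets with 1 gene and a brighter mean signal. As they are, the 12 pools of Vnn1 form separate clusters by line, and the likeness follows the line difference. The most like were 2 probe sets of Mndal, which belongs to a family of genes induced by interferon, and 1 of Dhx32, an RNA helicase gene with 832 ± 71.7 in FL1 and 111 ± 25.04 in DUKsi. With the mean of each line taken off, the most like were Zdhhc20, which encodes a palmitoyltransferase (Pearson r = 0.93 over 12 pools), Tmc6 (0.88) and Ndufb9, a subunit of respiratory complex I (0.88), in a range of -0.89 to 0.93 over all probe sets. On this scale Pank3 had 0.37 in 1433613_at and -0.21 in 1426259_at, Pank1 had 0.13 in 1431028_a_at and 0.07 in 1418715_at, and Coasy had 0.07. These correlations are descriptions, as the pools share RNA quality and scaling and the highest of so many is high by selection.

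**Figure D5:**
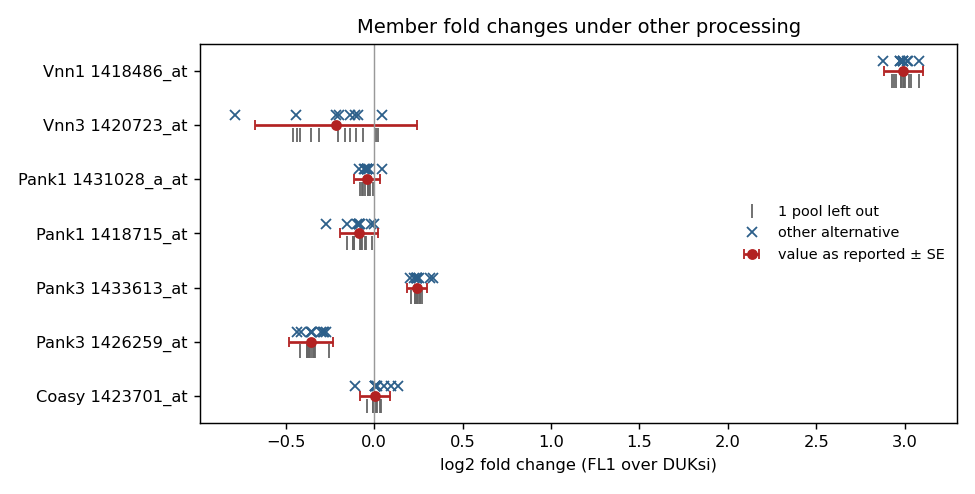
Log2 fold change (FL1 over DUKsi, x axis) of each member probe set (y axis) as reported (red, ± SE), with 1 pool left out (grey bars) and under the other alternatives (blue crosses). Vnn1 stayed between 2.88 and 3.08, the Pank3 probe sets kept opposite signs, and Vnn3 ran from -0.79 to 0.05.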

How the data were processed

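Ovary RNA pools of FL1 and DUKsi (6 per line, 2 arrays each, 24 arrays) were measured by the authors on Affymetrix mouse expression arrays. The deposited intensity values are linear signals that the authors obtained with MAS5, whose scaling brings arrays to 1 target level. Trimmed of 2% of the probe sets on either side, the mean was 500.1 on every array, the medians were 212 to 244.5, and no array repeated another. The number of pools limits the precision. Single-probe intensities, present calls and qPCR values were not used here, nor were the authors' pairwise comparisons.

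The mean signal of the arrays of a pool was taken, and log2 values were compared in R 4.3.3 with limma 3.58.1 (trend of the variance on the mean) over 22626 probe sets, without 64 controls, with Benjamini-Hochberg adjustment. Of these probe sets 20380 have 1 gene in the platform annotation, 691 several and 1555 none. Members, gene lists and tests were chosen with earlier results of these data known. For each list up to 4 genes that passed, by fold change, or 2 by signal were named, and of the neighbours those that passed. Names, gene order and sequences came from RefSeq (GRCm38.p6), of which no gene coordinates were matched to the arrays. Dixon's ratio served to find single pools that stood apart. Shared pool numbers did not pair the pools, as same-numbered pools correlated at -0.30 to 0.15 in their deviations from the line means. Exact permutation tests used scipy 1.17.1. The fit was tested on simulated signals with known changes.

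Alternatives were the first or second arrays alone, the mean of log2 values, quantile normalization, scaling to the same median, the constant 48.4 added before log2, the dimmest 40% of probe sets omitted, the methods' t-test (two-sample, equal variance, linear signals), limma without the trend, a block for the pool number, a threshold of 0.05 on the adjusted p, all probe sets of a gene, and each pool left out. The beta-actin ratio as a covariate and the 5 nearest measured neighbours were chosen after seeing the data.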

Additional observations from a re-analysis of the deposited data

Results flagged for a closer look

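The Decr1 signal (1419367_at) was 905.15 in DUKsi pool 4, against 739 to 797 in the other 5 DUKsi pools. Its gap to the next pool was 0.647 of the range of the line, above the critical value of Dixon's ratio for 6 samples. It was the only such value among 22 groups of pools examined (the members and the named genes that passed, in each line), and chance gives about 1 in 20. The pool lay on the side of FL1, whose lowest pool was 1203. For Vnn1 and the other members no pool stood apart by this measure.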

How the results depend on the processing

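The log2 fold changes of the members were recomputed in 146 combinations of probe set and alternative, of which 143 differed from the reported value by less than the spread between pools. Many of these could not have differed by more, so the count says little about stability. Leaving out 1 pool always moves the mean of a line by less than the spread between its pools. The block for the pool number and the omission of dim probe sets returned the reported values of the measured members unchanged. Only the other alternatives could exceed the spread, and all exceptions came from them. Vnn1 was 2.88 to 3.08 (2.93 to 3.08 with 1 pool left out). The exceptions were Pank3 1433613_at at 0.33 with scaling to the same median, and Coasy at 0.13 on the first and -0.11 on the second arrays alone. With the 40% of dimmest probe sets left out Vnn3 was not measured. Vnn1, the only called member, did not reverse. Both small Pank1 values changed sign with scaling to the same median, to 0.047 in 1431028_a_at and 0.0019 in 1418715_at.

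Of all probe sets 764 passed and 524 were called (281 higher and 243 lower in FL1). With medians made equal between arrays 392 were higher and 189 lower. The methods' t-test called 335 and passed 507. The second arrays alone passed 468, the beta-actin covariate 1241 and an adjusted p under 0.05 1564. With 1 pool left out 431 to 614 were called and 573 to 943 passed (943 without FL1 pool 3). The replicate block gave 461 called and 564 passed.

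The list of CoA synthesis and pantothenate supply had 1 gene past the test and 0 with the first arrays alone, the replicate block, scaling to the same median, the methods' t-test, limma without the trend or the beta-actin covariate (0 to 1 with 1 pool left out). The PPAR alpha list had 2 and 1 on the first or second arrays alone. The acyl-CoA synthetases had 0, but 1 with the replicate block (Acss1), 2 with scaling to the same median (Acss1 and Slc27a4), 3 at an adjusted p under 0.05, and 0 to 1 with 1 pool left out (Slc27a4 without DUKsi pool 1, Acss1 without DUKsi pool 4). With the beta-actin covariate CoA breakdown had 1 (Nudt7) and cysteamine, taurine and glutathione had 1 (Slc6a6). The thioesterases stayed at 0 in all 25 alternatives. The cause was not tested. At signals near 48.4, as for Vnn3, small differences cannot be resolved.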
